A study of Mus musculus with 62 samples.

Results

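The 8 genes described here act in muscle glucose uptake and its first chemical step: the glucose transporters Slc2a4 and Slc2a1, the hexokinases Hk1 and Hk2, the Rab GTPase-activating proteins Tbc1d1 and Tbc1d4, and the inhibitors of glucose uptake Txnip and Rrad. They were taken by name, with earlier results of these data known, and all 8 were found among the 55487 genes of the count table and passed the filter on low counts. The table holds 62 poly-A RNA-seq libraries of quadriceps from male mice. The 8 groups were running mice given nicotinamide riboside and pterostilbene (n = 8), nicotinamide riboside alone (n = 7), pterostilbene alone (n = 8) or neither supplement (n = 7), and non-running mice given both supplements (n = 8), nicotinamide riboside alone (n = 8), pterostilbene alone (n = 8) or neither (n = 8). Running was voluntary wheel running. Nicotinamide riboside (NR) is a vitamin B3 form from which cells make NAD, given intravenously according to the title of the series, and pterostilbene (PT) is a plant stilbene. The labels state no strain, age, dose or duration.

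The mice were killed on 8 days, in a morning and a noon session on each day, which makes 16 sessions of 3 or 4 mice. Each session held only running or only non-running mice, so running and hour were compared between sessions, whereas the supplements varied within sessions. Days 1 to 4 belonged to cohort 1 and days 5 to 8 to cohort 2. Libraries held 5642043 to 30804390 counts. The 8 muscle-fibre markers summed to 145023 CPM in running and 151972 CPM in non-running mice on average, where CPM is the count of a gene scaled to the library's TMM-adjusted total. A running library given NR alone, from day 2, stood apart: it was the shallowest, and 15.2% of its counts fell on 3 ribosomal-RNA-like genes, against 1.43% or less in the other 61 libraries.

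In resting muscle GLUT4, the product of Slc2a4, lies in intracellular vesicles, and insulin or contraction brings it to the cell surface; GLUT1, from Slc2a1, serves basal uptake. The proteins of Tbc1d1 and Tbc1d4 hold the vesicles back until kinases of the AKT and AMPK families phosphorylate them. Hexokinase then traps glucose as glucose 6-phosphate, hexokinase II being the main form of adult muscle. TXNIP is an arrestin-domain protein that binds thioredoxin and lowers glucose uptake, and its gene is a well-known target of the glucose-sensing factors encoded by Mlxip and Mlxipl with their partner Mlx. RRAD is a small GTPase of the RGK family, which restrains voltage-gated calcium channels; it was found through its high level in muscle of people with type 2 diabetes.

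The Txnip promoter is shown because the gene is known for its response to glucose and the letters of that response element stand in it. It holds CACGAG at bases 166 to 171 and again at bases 177 to 182, both on the gene's strand and 5 bases apart, the layout by which carbohydrate response elements are described. The 250 bases before the RefSeq start of Txnip (GRCm38.p6, chr3:96557707-96557956, plus strand), with both copies in capitals, read:

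Txnip: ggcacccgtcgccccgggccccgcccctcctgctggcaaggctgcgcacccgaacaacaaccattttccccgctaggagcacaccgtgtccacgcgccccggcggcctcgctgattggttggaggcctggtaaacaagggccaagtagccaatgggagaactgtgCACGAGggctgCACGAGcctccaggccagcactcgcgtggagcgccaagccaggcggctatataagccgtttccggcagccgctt

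The RefSeq table holds promoters of 300 bases for 6 of the 8 genes. The spaced pair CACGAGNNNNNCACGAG, searched on both strands, occurred in 1 of 32851 promoters in the table, that of Txnip. Its letters and spacing are those of the Txnip promoter itself, so this count says nothing about response elements spelled otherwise. The lone motif CACGAG occurred in 6.47% of them and CACGTG in 7.15%, and neither was found in the promoter windows of Slc2a1, Hk1, Hk2, Tbc1d1 or Tbc1d4.

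Levels per length set the genes in 3 ranges. Over the 62 libraries, Txnip averaged 218 ± 30.0 CPM per kb, Slc2a4 144 ± 10.7 CPM per kb and Hk2 56.4 ± 8.54 CPM per kb (SD). Tbc1d4 averaged 8.05 ± 1.34 CPM per kb and Tbc1d1 6.96 ± 1.62 CPM per kb. The lowest were Slc2a1 at 1.88 ± 0.31 CPM per kb, Rrad at 1.81 ± 0.82 CPM per kb and Hk1 at 1.19 ± 0.17 CPM per kb. Txnip exceeded Slc2a4, Slc2a4 exceeded Hk2, Hk2 exceeded Tbc1d4, and Tbc1d1 exceeded Slc2a1 in 62 of 62 libraries. The other neighbours overlapped: Tbc1d4 was above Tbc1d1 in 45 libraries, Slc2a1 above Rrad in 38 and Rrad above Hk1 in 49. Within the families, the muscle forms dominated. The level of Hk2 was 47.1 times that of Hk1 per length (median of libraries; 28.6 to 72.9), and the level of Slc2a4 was 76.1 times that of Slc2a1 (58.0 to 107).

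**Figure D1:**
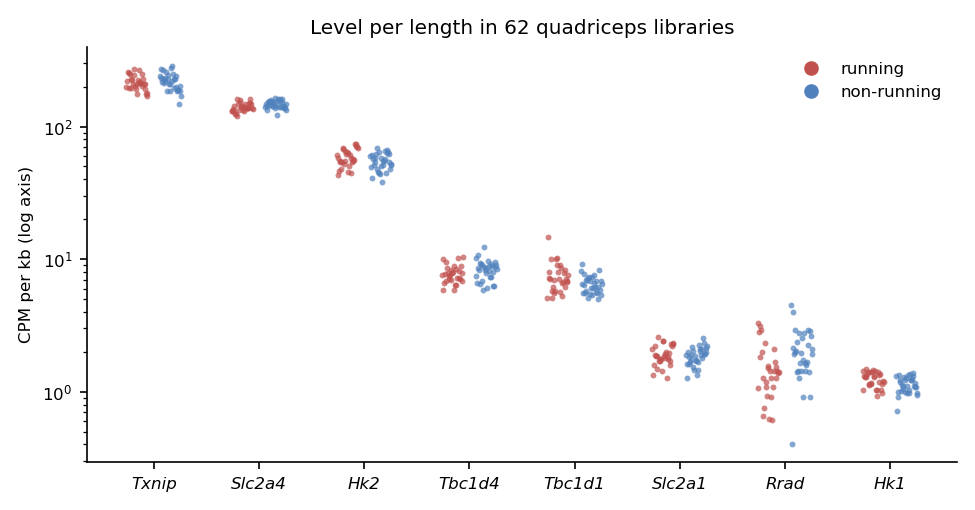
Level of each gene in CPM per kb of gene length (log axis), one point per library, running mice left and non-running mice right of each tick. Txnip, Slc2a4 and Hk2 lie far above the other 5 genes, and Rrad has the widest spread.

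The genes also differed in how steady they were. The SD was 7.47% of the mean for Slc2a4, the least variable, and 45.6% for Rrad, the most variable. The others lay between 13.8% for Txnip and 23.3% for Tbc1d1. Rrad rested on 8 to 104 reads per library and Slc2a1 on 18 to 231, so counting error is larger for these than for Slc2a4, which had at least 1770 reads in every library.

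**Figure D2:**
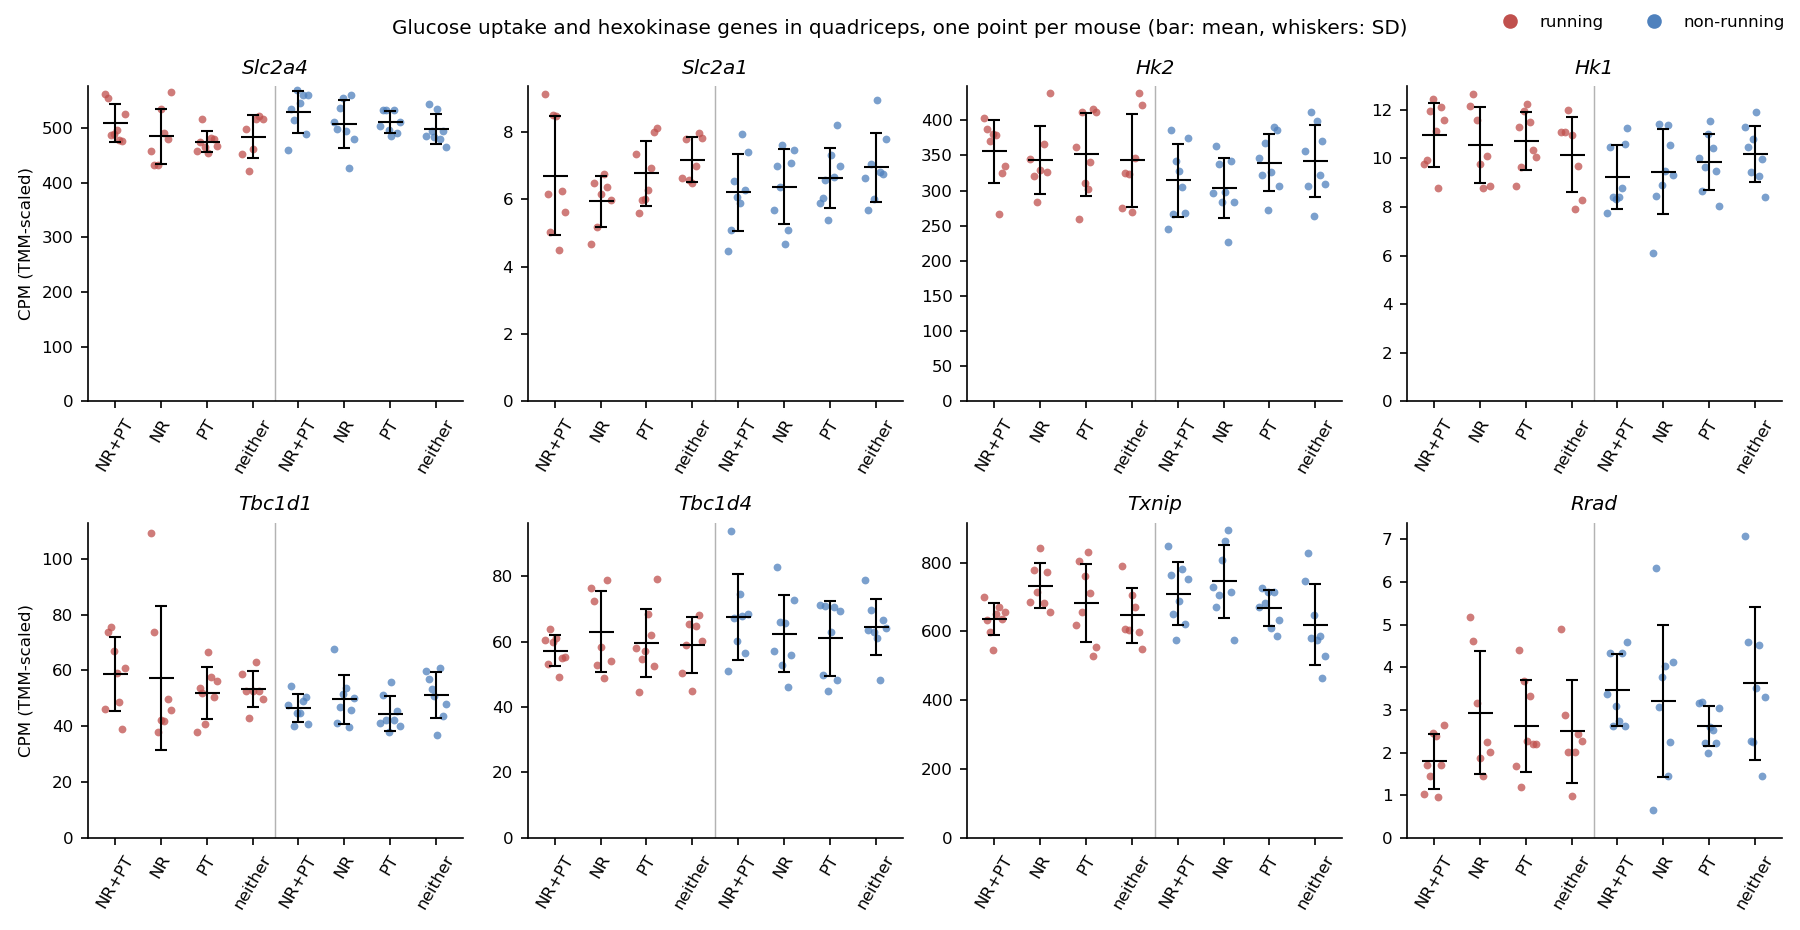
CPM of the 8 genes in the 8 groups, one point per mouse, with the mean and SD; running groups stand left of the grey line and non-running groups right of it. Running and non-running points overlap for every gene, and the points of Rrad lie lower in running than in non-running mice on average.

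Running was compared with non-running first, which asks whether training by wheel running moved the mRNA of the uptake pathway. By edgeR's quasi-likelihood test with Benjamini-Hochberg adjustment over 14549 genes, 1 of the 8 genes, Rrad, fell in running mice and none rose at an adjusted p under 0.05. Of all genes tested, 14% were called, 8.41% upward and 5.58% downward, so 1 of 8 is close to the share among all genes. The median log2 fold change of the 8 genes was 0.00, against 0.01 over all genes, with 4 above and 4 below 0. In whole muscle, fewer cells of a type and less RNA per cell cannot be told apart. Here and below, p-values for running treat mice as replicates unless session sums are named, although running varied only between sessions.

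Rrad (chr8:104628070-104631327 in mm10, minus strand) ranged from 0.97 to 5.17 CPM with a median of 2.23 CPM in running mice, and from 0.64 to 7.07 CPM with a median of 3.08 CPM in non-running mice. The groups overlapped widely. The mean was 2.44 ± 1.14 CPM in 30 running and 3.23 ± 1.34 CPM in 32 non-running mice (SD). Rrad fell in running mice, at a log2 fold change of -0.41 ± 0.13 (SE; 95% interval -0.68 to -0.14), with an adjusted p of 0.0315 in edgeR. Rrad was lower in the running mouse in 21 of 30 pairs matched for day and supplements, and lower in the running session on 6 of 8 days. On every day the running and non-running mice were killed at different hours, so each of these pairs also differed in hour and session. The call did not survive when counts were summed over the mice of a session, the unit at which running varied: the log2 fold change was then -0.38 ± 0.12 with an adjusted p of 0.0773, where 8.76% of all genes were called and 0 of the 8 genes. With each day left out in turn, the log2 fold change of Rrad ran from -0.51 to -0.33 and the call held in 3 of 8 fits, those without day 2, day 4 or day 8; without the ribosomal-RNA-rich library it was -0.45 with an adjusted p of 0.0168.

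By supplement, Rrad averaged 1.80 ± 0.64 CPM in running and 3.46 ± 0.84 CPM in non-running mice given both supplements. Given NR alone, the means were 2.93 ± 1.45 CPM in running and 3.21 ± 1.78 CPM in non-running mice. Given PT alone, they were 2.62 ± 1.08 CPM in running and 2.62 ± 0.46 CPM in non-running mice. With neither supplement they were 2.50 ± 1.21 CPM in running and 3.62 ± 1.79 CPM in non-running mice. With both supplements the highest running mouse, at 2.65 CPM, lay just above the lowest non-running one, at 2.61 CPM. Running with both supplements gave a log2 fold change of -0.90 ± 0.27 with an adjusted p of 0.0648 in edgeR, where 1.7% of all genes were called, and DESeq2 gave an adjusted p of 0.0211, where 3.23% were. In edgeR this difference was called with the replicate number as a block (-0.94, adjusted p 0.0418), without day 8 (-1.14, adjusted p 0.0393), without the ribosomal-RNA-rich library (-0.91, adjusted p 0.0496) and without the 4 libraries richest in such reads (-0.97, adjusted p 0.0436); over all its alternatives the adjusted p ran from 0.0211 to 0.473. The three-way interaction for Rrad was -1.16 ± 0.54 on the log2 scale, with an adjusted p of 1.00 in edgeR. It sets the running effect with both and with neither supplement against that in the single-supplement arms. The interaction of running was -0.30 ± 0.27 with NR and -0.09 ± 0.27 with PT, neither called. A difference between supplement arms was thus not shown, and the arm with both supplements was not itself tested against the others.

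Rrad moved with some genes of damaged, denervated or regenerating muscle. Of 12 such genes, 5 fell and none rose in running mice, where 5.58% of all genes fell and 8.41% rose. Sln, which encodes the calcium pump inhibitor sarcolipin, fell at a log2 fold change of -1.55 ± 0.24 with an adjusted p of 2.5e-05 (edgeR). Cdkn1a, a cell cycle inhibitor, fell at -0.66 ± 0.12 with an adjusted p of 1.6e-04 (edgeR). The other 3 to fall were Myod1, Chrng and Myog. Ankrd1, Chrna1, Gadd45a, Myh3, Myh8, Ncam1 and Runx1 were not called. The summed level of the 12 genes ran from 64.0 to 230.04 CPM in running and from 70.8 to 229 CPM in non-running mice. Of the 12, Ankrd1, which was not called, had the widest range, 7.42 to 165 CPM. Only Chrng averaged under 1 CPM, at 0.30 CPM with no reads in 9 libraries. Pearson's r of Rrad with the sum of the 12 genes was 0.69 over the 62 libraries, with group, day and hour left in. The part of these genes in the result for Rrad was not tested. The 3 genes whose log2 CPM followed Rrad most closely among 11775 genes were Cdkn1a (r = 0.60), Aldh3a1, an aldehyde dehydrogenase (r = 0.58), and Sln (r = 0.58). After group, day and hour were removed, these values were 0.52, 0.41 and 0.50.

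**Figure D3:**
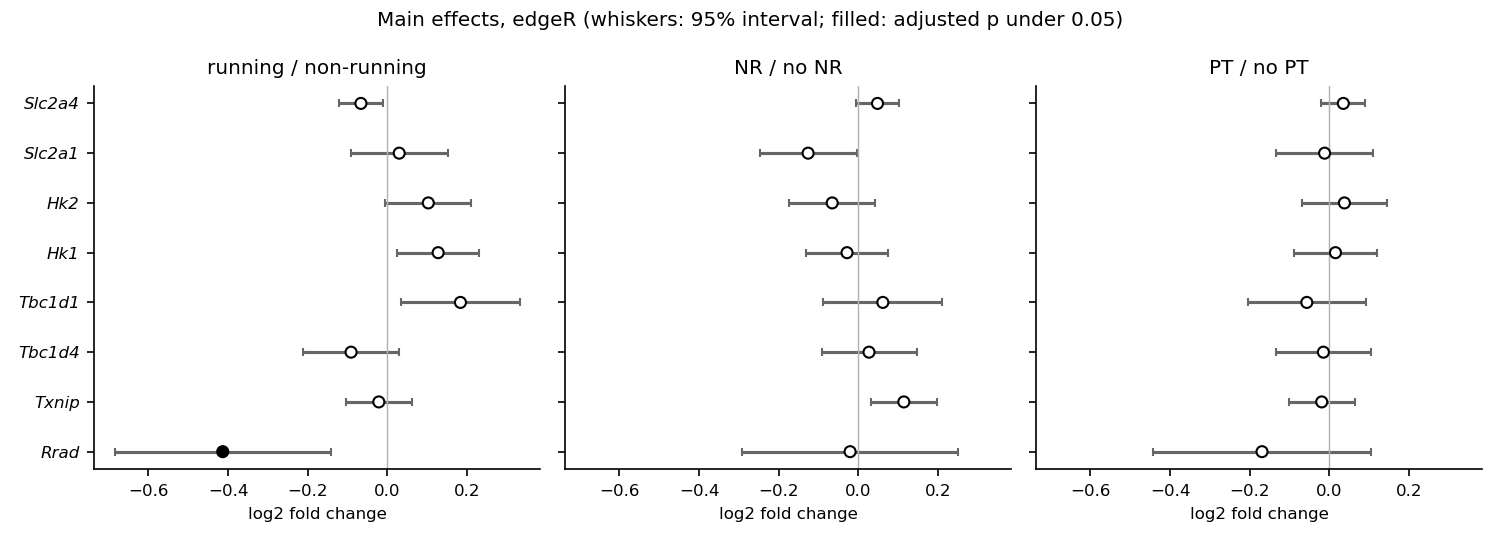
Log2 fold change of each gene for running against non-running, NR against no NR and PT against no PT, with 95% intervals from edgeR; a filled point has an adjusted p under 0.05. Rrad in running mice is the only filled point, and the intervals for PT all cross 0.

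Slc2a4 (chr11:69942539-69948147, minus strand) ranged from 421 to 565 CPM with a median of 481 CPM in running mice, and from 427 to 569 CPM with a median of 507 CPM in non-running mice. This is a log2 fold change of -0.07 ± 0.03 with an adjusted p of 0.0936, and the 95% interval of the fold was 0.919 to 0.992. Over the 62 libraries, Slc2a4 had an r of 0.28 with the muscle-fibre sum. With marker sums of other cell types it ran from -0.38 for adipocytes to -0.11 for erythrocytes. The part of these cells in the value of Slc2a4 was not tested. The gene was lower in the running mouse in 20 of 30 pairs matched for day and supplements but not for hour. DESeq2 called it, at -0.07 with an adjusted p of 0.0405, 1 of 2 calls among the 8 genes where 16.4% of all genes were called; edgeR called it without day 3, day 5 or day 7, with adjusted p of 0.0319, 0.0469 and 0.0321. Slc2a1 (chr4:119108711-119137983, plus strand) ranged from 4.48 to 9.13 CPM in running and from 4.46 to 8.93 CPM in non-running mice. Its log2 fold change was 0.03 ± 0.06 with an interval of -0.09 to 0.15.

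GLUT1 is abundant in the endothelium of several tissues, and endothelial markers moved strongly here. All 16 endothelial genes rose in running mice, where 8.41% of all genes did. Cdh5, encoding VE-cadherin, rose at a log2 fold change of 0.35 ± 0.04 with an adjusted p of 3.9e-07 in edgeR. The sum of the 16 ran from 476 to 819 CPM in running and from 451 to 593 CPM in non-running mice. Slc2a1 had an r of 0.03 with that sum across the 62 libraries. The gene rested on 18 to 231 reads per library, and the part of endothelial cells in its value was not tested.

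Hk2 (chr6:82725025-82774454, minus strand) ranged from 259 to 438 CPM with a median of 342 CPM in running mice, and from 227 to 413 CPM with a median of 325 CPM in non-running mice. Its log2 fold change was 0.10 ± 0.05 with an adjusted p of 0.198. Hk1 (chr10:62268855-62379908, minus strand) ranged from 7.92 to 12.6 CPM with a median of 11.03 CPM in running mice, and from 6.09 to 11.9 CPM with a median of 9.57 CPM in non-running mice. The log2 fold change of Hk1 was 0.13 ± 0.05 with an adjusted p of 0.0874. Hk1 was higher in the running mouse in 20 of 30 pairs matched for day and supplements but not for hour. Neither hexokinase passed the test with all days in, whereas Hk2 did without day 2, at 0.17 with an adjusted p of 0.0238, and Hk1 without day 5, at 0.16 with an adjusted p of 0.0455.

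Hk1 was higher where markers of several cell types other than muscle fibres were higher. Its r over the 62 libraries was 0.48 with the sum of 6 fibroblast genes, 0.48 with 6 adipocyte genes, 0.46 with 8 macrophage genes and 0.41 with the endothelial sum, against -0.39 with the 8 muscle-fibre genes. It was 0.36 with 8 pericyte and smooth muscle genes, 0.14 with 6 erythrocyte genes and 0.13 with 10 nerve and Schwann cell genes. The fibroblast sum ran from 1054 to 2465 CPM in running and from 687 to 2302 CPM in non-running mice. Of its 6 genes, 3 rose, where 8.41% of all genes did. The part of these cells in the value of Hk1 was not tested. The closest genes were Tnfrsf1a, a tumour necrosis factor receptor (r = 0.70), Bgn, which encodes the matrix proteoglycan biglycan (r = 0.67), and App (r = 0.66).

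Tbc1d1 (chr5:64156305-64351486, plus strand) ranged from 37.8 to 109 CPM with a median of 52.6 CPM in running mice, and from 36.9 to 67.7 CPM with a median of 47.3 CPM in non-running mice. The value of 109 CPM came from the ribosomal-RNA-rich library, and the next was 75.5 CPM. The log2 fold change of Tbc1d1 was 0.18 ± 0.07 with an adjusted p of 0.0878, and 0.13 ± 0.06 with an adjusted p of 0.166 without that library. Over the 62 libraries, that library included, Tbc1d1 had an r of 0.55 with the endothelial sum. It was 0.37 with the pericyte and smooth muscle sum and -0.43 with the muscle-fibre sum. For the other cell types it ran from -0.24 with macrophage genes to 0.02 with adipocyte genes. The part of these cells in the value of Tbc1d1 was not tested. Tbc1d4 (chr14:101442360-101609033, minus strand) ranged from 44.5 to 79.2 CPM in running and from 44.8 to 94.0 CPM in non-running mice, with a log2 fold change of -0.09 ± 0.06 and an adjusted p of 0.320. The paralogs thus gave estimates of opposite sign, but neither passed the test.

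Txnip (chr3:96557957-96561858, plus strand) had close values in running and non-running mice. It ranged from 528 to 843 CPM with a median of 663 CPM in running mice, and from 464 to 895 CPM with a median of 685 CPM in non-running mice. The log2 fold change was -0.02 ± 0.04, and the 95% interval of the fold was 0.930 to 1.04.

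NR and PT were compared within sessions. None of the 8 genes was called under NR (0.0206% of all genes were, by edgeR) or under PT (0%), and DESeq2 called 0 of 8 under each. At an unadjusted p under 0.05, 828 of all 14549 genes passed under NR and 580 under PT. Of the 8 genes, 2 passed under NR and 0 under PT. Those 2 were Txnip and Slc2a1. Txnip ranged from 545 to 895 CPM with a median of 688 CPM in 31 mice given NR, and from 464 to 831 CPM with a median of 649 CPM in 31 mice not given it. That is a log2 fold change of 0.11 ± 0.04 with an adjusted p of 0.642. Slc2a1 averaged 6.31 ± 1.22 CPM with NR and 6.87 ± 0.88 CPM without, at a log2 fold change of -0.13 ± 0.06 with an adjusted p of 0.852. Slc2a1 was lower in the NR mouse in 22 of 30 pairs matched for day, running and PT, and Txnip was higher in 19 of 30.

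For Txnip the NR values parted by PT. Without PT it averaged 740 ± 86.6 CPM in 15 mice given NR and 632 ± 99.7 CPM in 15 mice given neither supplement. With PT it averaged 673 ± 79.9 CPM in 16 mice given NR and 675 ± 85.0 CPM in 16 mice given PT alone. The interaction was -0.24 ± 0.08 on the log2 scale, with an adjusted p of 1.00 in edgeR, so the difference was not shown; 0% of all genes were called in this and in each of the other 3 interactions. For the other genes, the widest 95% interval of the NR effect was that of Rrad, 0.817 to 1.19 as a fold, and the narrowest that of Slc2a4, 0.995 to 1.07. For PT the same genes gave 0.736 to 1.08 for Rrad and 0.986 to 1.06 for Slc2a4.

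Running within each supplement arm gave no call among the 8 genes in edgeR with all libraries and no replicate block. Of all genes, 1.7% were called with both supplements, 0.447% with NR alone, 0.00687% with PT alone and 0% with neither. At an unadjusted p under 0.05, 3 of the 8 genes passed with both supplements, namely Rrad, Hk1 and Tbc1d1, and 0 in each of the other 3 arms. At that threshold 2420 of all 14549 genes passed with both supplements, 1586 with NR alone, 1342 with PT alone and 990 with neither. In the arm with both supplements, Hk1 had a log2 fold change of 0.24 ± 0.10 and Tbc1d1 of 0.32 ± 0.14, with adjusted p of 0.199 and 0.247.

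Hk2 was lower at noon than in the morning in cohort 2. There, the 4 noon sessions averaged 291 to 315 CPM and the 4 morning sessions 357 to 404 CPM, with no overlap and with running and non-running sessions in each set. On these days the running noon sessions stood at 311 and 315 CPM and the running morning sessions at 395 and 404 CPM, while the non-running noon sessions stood at 297 and 291 CPM and the non-running morning sessions at 357 and 365 CPM. By the labels, body weight change was negative in every running morning mouse of cohort 2 and positive in most running noon mice. It was positive in nearly all non-running mice at both hours. The part of weight change in the values of Hk2 was not tested. In cohort 1, the noon sessions averaged 287 to 367 CPM and the morning sessions 277 to 363 CPM, and noon was lower on 2 of 4 days. Fitted alone, cohort 2 gave Hk2 a log2 fold change of -0.32 ± 0.05 for noon against morning with an adjusted p of 3.4e-05 in edgeR, where 1.69% of all genes were called. Cohort 1 alone gave 0.06 ± 0.07 with an adjusted p of 0.983, where 0% were called. These p-values treat mice as replicates, although hour varied between sessions. With counts summed per session, tried after the session means had been seen, cohort 2 gave Hk2 -0.33 ± 0.04 with an adjusted p of 1.0e-04 in edgeR, where 2 of the 8 genes and 2.04% of all genes were called, and cohort 1 gave 0.05 ± 0.15, where 0% were. The other call was Tbc1d1, higher at noon in cohort 2 at 0.18 ± 0.04 with an adjusted p of 0.0225. Each of these fits has 8 sessions and few residual degrees of freedom, so its errors rest mainly on the spread shared across genes.

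Over all days the noon difference of Hk2 was -0.14 ± 0.05 with an adjusted p of 0.733; no gene of the 8 was called and 0% of all genes were, and the same held with counts summed per session, at -0.14 ± 0.11. The difference between the cohorts, tested after the session means had been seen, was -0.38 ± 0.09 with an adjusted p of 0.0791 in edgeR, where 0.0619% of all genes were called, and 0.0228 in DESeq2, where 0.509% were. With counts summed per session it was -0.38 ± 0.16 with an adjusted p of 0.822, and 0% of all genes were called. Slc2a4 and Slc2a1 shared the order in cohort 2: noon was lower than morning on 4 of 4 days for both genes, at 480 to 494 CPM at noon and 492.7 to 544 CPM in the morning for Slc2a4. For Slc2a1 these sessions overlapped, at 6.02 to 7.21 CPM at noon and 6.75 to 7.79 CPM in the morning. The difference of the cohorts was -0.13 ± 0.05 for Slc2a4 and -0.21 ± 0.12 for Slc2a1, with adjusted p of 0.421 and 0.585 in edgeR. For Rrad it had the opposite sign, at 0.61 ± 0.26 with an adjusted p of 0.461. Noon was lower for Rrad on 4 of 4 days in cohort 1 and on 2 of 4 in cohort 2.

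**Figure D4:**
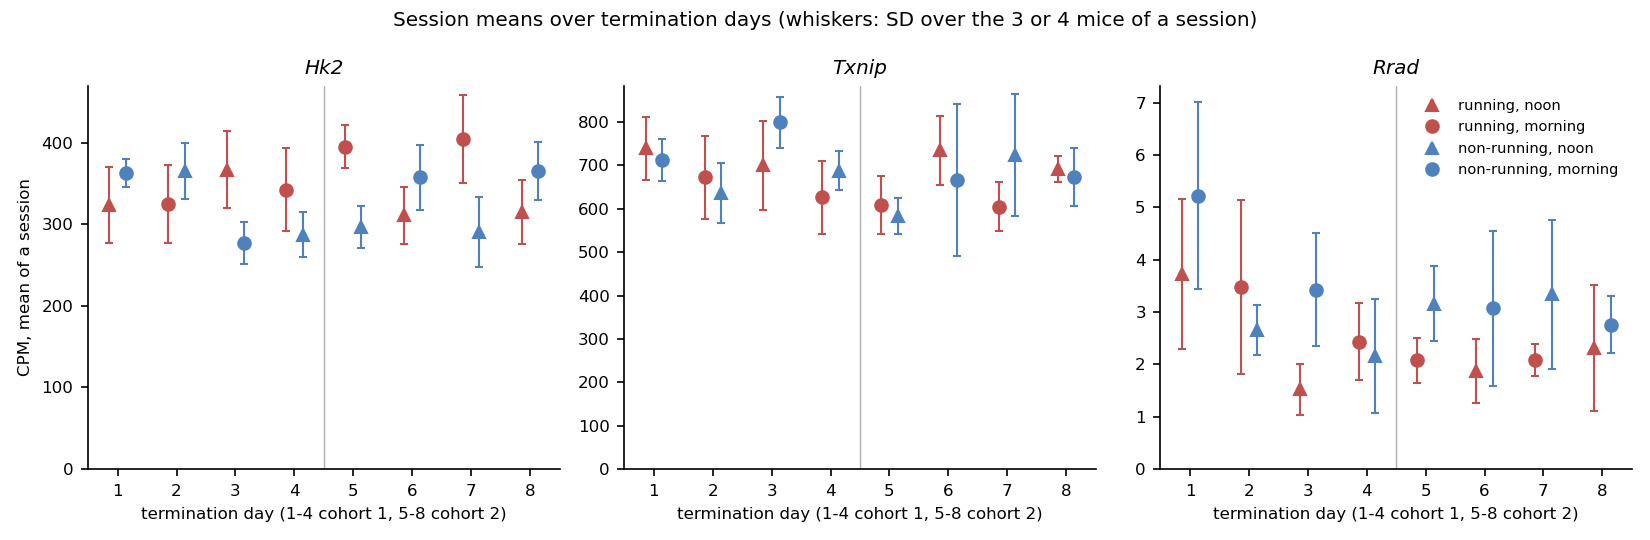
Session means of Hk2, Txnip and Rrad in CPM over the 8 termination days, with the SD over the 3 or 4 mice of a session; triangles are noon and circles morning sessions, running mice in red and left, non-running mice in blue and right. On days 5 to 8 every noon session of Hk2 lies below every morning session.

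For Txnip, hour and running crossed. It averaged 718 ± 73.1 CPM in running and 658 ± 93.1 CPM in non-running mice at noon, and 629 ± 74.0 CPM in running and 713 ± 106 CPM in non-running mice in the morning. Running mice were killed at noon on days 1, 3, 6 and 8 and in the morning on days 2, 4, 5 and 7, so this crossing and a difference between those sets of days cannot be told apart.

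Across libraries, Hk2 ran with the transporters and, less closely, with Tbc1d4, and against Txnip. Pearson's r over the 62 libraries was -0.49 between Hk2 and Txnip, 0.41 between Hk2 and Slc2a4, 0.49 between Hk2 and Slc2a1, and -0.48 between Slc2a1 and Txnip. After group, day and hour were removed, these were -0.51, 0.63, 0.55 and -0.34. Hk2 and Tbc1d4 had an r of 0.35, which was 0.46 after the same removal. Slc2a4 had an r of -0.35 with Hk1 (-0.40 after removal), and Tbc1d4 of 0.37 with Rrad (0.16 after removal). Slc2a4 itself showed no relation to Txnip (r = -0.01). Tbc1d1 and Tbc1d4 were hardly related to each other (r = 0.15), and Hk1 and Hk2 had an r of 0.01, which was -0.27 after group, day and hour were removed. These correlations describe libraries that share sessions and a common scaling, and they carry no test.

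**Figure D5:**
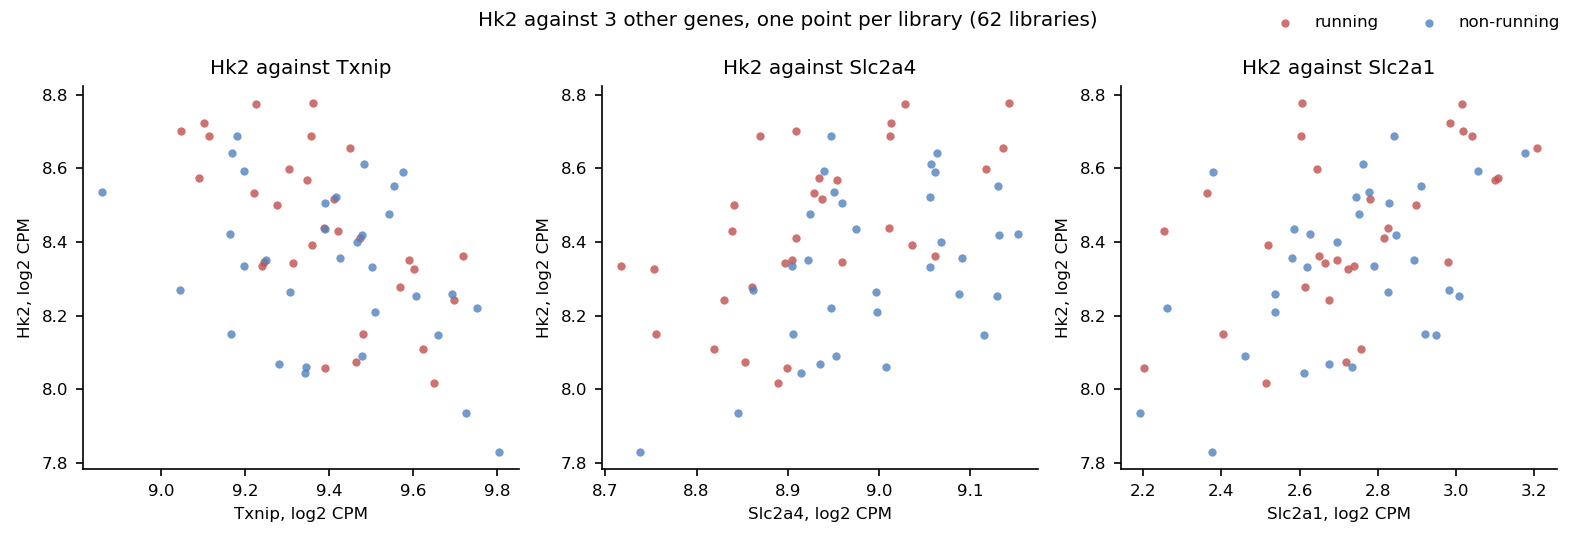
Log2 CPM of Hk2 against that of Txnip, Slc2a4 and Slc2a1, one point per library, running mice in red and non-running mice in blue. Hk2 declines with Txnip (r = -0.49) and increases with Slc2a4 (r = 0.41) and Slc2a1 (r = 0.49), with wide scatter.

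Among the 11775 genes that averaged 1 CPM or more, the 3 whose log2 CPM was most like Hk2 were Mylk4, a myosin light chain kinase family member (r = 0.77), Cdc14a, a phosphatase (r = 0.76), and Mid1ip1 (r = 0.76). For Txnip they were Pfkfb3, which makes the glycolytic activator fructose 2,6-bisphosphate (r = 0.59), and the Krüppel-like factors Klf10 (r = 0.57) and Klf11 (r = 0.55). For Slc2a4 they were the lysosomal protease gene Ctsd (r = 0.69), the alanyl-tRNA synthetase gene Aars (r = 0.68) and Tmem161a (r = 0.68). For Slc2a1 they were Serhl (r = 0.56), the DNA glycosylase gene Neil1 (r = 0.55) and Trip10 (r = 0.54). Tbc1d1 was nearest to the potassium channel gene Kcnc1 (r = 0.78), Arfgef2 (r = 0.71) and Xirp2 (r = 0.69), and Tbc1d4 to Pcnt (r = 0.67), Acss1 (r = 0.64) and Lrrn1 (r = 0.63). By Spearman's rank correlation the values for Tbc1d1 were lower, at 0.73, 0.60 and 0.58.

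The genes around the 8 moved in mixed directions in running mice, where 14% of all genes were called. With counts summed per session, 8.76% of all genes were. Calls below without a session value rest on mice as replicates, although running varied between sessions. Of 15 other glucose transporters and sugar-phosphorylating or dephosphorylating enzymes, 10 were tested and 1 fell: Slc2a3, encoding the high-affinity transporter GLUT3, at a log2 fold change of -0.33 ± 0.07 with an adjusted p of 0.00181, and 0.0122 with counts summed per session. The next by p were Slc2a10 at 0.17 ± 0.08, Slc2a8 at 0.08 ± 0.04 and Slc2a9 at 0.23 ± 0.12, none called. The median of the 10 was 0.02.

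Of 25 genes of GLUT4 vesicle traffic, 2 rose and 3 fell. Sort1, encoding the vesicle-sorting receptor sortilin, fell at -0.20 ± 0.04 with an adjusted p of 1.1e-04. Stxbp3, encoding the syntaxin-binding protein Munc18c, fell at -0.12 ± 0.03 with an adjusted p of 0.0036. Pak1, a kinase downstream of Rac1, rose at 0.16 ± 0.04, and Myo1c, a motor protein of the vesicles, rose at 0.10 ± 0.03, with adjusted p of 0.0114 and 0.0234. The third to fall was Aspscr1, encoding the GLUT4 tether TUG, at -0.13 ± 0.04. Sort1, Stxbp3 and Pak1 also passed with counts summed per session, with adjusted p of 0.00244, 0.0188 and 0.0151. The median of the 25 was -0.03.

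Of 15 AMPK and AKT pathway genes, 1 rose and 4 fell. The AMPK subunit genes Prkab2 at -0.10 ± 0.03 and Prkag3 at -0.18 ± 0.06, the LKB1 partner Cab39 at -0.09 ± 0.03 and the insulin-pathway kinase Akt2 at -0.07 ± 0.02 fell, with adjusted p of 0.00625 to 0.0390. Of 15 regulators of Slc2a4 and Hk2, Ppargc1a, the coactivator PGC-1alpha, rose at 0.20 ± 0.05 with an adjusted p of 0.00283, and Mef2a, a factor that binds the Slc2a4 promoter, fell at -0.07 ± 0.02 with an adjusted p of 0.0326. Esrra at 0.11 ± 0.04 and Mef2d at -0.07 ± 0.03 were not called.

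Around Txnip, 11 arrestin, thioredoxin and glucose-sensing genes were tested, of which 2 rose and 1 fell. Txn2, the mitochondrial thioredoxin, rose at 0.13 ± 0.04 and Arrdc1 at 0.17 ± 0.06, and Txnrd1, a thioredoxin reductase, fell at -0.08 ± 0.03, with adjusted p of 0.0156, 0.0354 and 0.0424. Mlxip was not called, at -0.09 ± 0.05. Arrdc4, the closest relative of Txnip among arrestin genes and likewise a glucose-responsive gene, was at -0.01 ± 0.05, and its r with Txnip over the 62 libraries was 0.03.

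Around Rrad, 10 of 11 RGK and calcium-signalling genes were tested; 2 fell and none rose. Cacng1, the gamma subunit of the skeletal muscle calcium channel, fell at -0.24 ± 0.04 with an adjusted p of 6.5e-05, and Camk2a, a calmodulin-dependent kinase, at -0.12 ± 0.03 with an adjusted p of 0.00651. The other RGK genes tested, Gem at 0.14 ± 0.10 and Rem1 at 0.07 ± 0.09, were not called. No gene of these 6 pathway lists was called under NR, PT or noon against morning.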

How the data were processed

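The deposited table gives whole-number read counts per gene for 62 libraries; per the submitters' processing notes, the authors used STAR 2.7.3a, featureCounts 2.0.0 and mm10. How strand was handled and which annotation release was used is not stated there. The gene lengths deposited beside the counts gave CPM per kb. Genes were matched by Ensembl ID to GENCODE names. Exons of Slc2a1, Hk1, Txnip and Rrad share bases with antisense genes, which held 18 to 537 counts over all libraries.

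Counts were scaled by TMM and tested with edgeR 4.0.16 (quasi-likelihood, robust) in R 4.3.3, with group, day and hour as terms and 46 residual degrees of freedom. Genes passed at a minimum count of 10 in a group's worth of libraries and 15 in total. SEs were derived from the F statistic. A call is a Benjamini-Hochberg adjusted p under 0.05 over 14549 genes. Libraries were treated as separate mice. Alternatives used DESeq2 1.42.0 and limma 3.58.1. The script was tested on simulated counts without session, day or hour effects, so that test does not bear on differences between sessions.

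The 8 genes and all gene lists were chosen with earlier results of these data known. Named genes were the 8, up to 4 per list with the smallest p in running, and the 3 with the highest Pearson r to each of the 8; Aspscr1, Prkag3, Gem, Rem1, Arrdc4 and the genes named from marker lists were added after their values were seen. The result of 1 gene of the pathway lists is not reported here.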

Additional observations from a re-analysis of the deposited data

Results flagged for a closer look

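In running mice given PT alone, Slc2a4 had a library at 516.3 CPM, from day 3, against a group median of 470.9 CPM. Its gap to the next library was 0.563 of the range of the 8 libraries. Of 64 sets of 1 gene in 1 group it was the only one that stood apart by Dixon's criterion, which chance meets in about 1 set in 20.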

How the results depend on the processing

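Over 21 other fits of running, the sign was kept in all 21 for Slc2a4, Hk1, Hk2, Tbc1d1, Tbc1d4 and Rrad, in 19 for Slc2a1 and in 18 for Txnip. Rrad lost its call without the low-count filter (-0.42), with group alone (-0.42), with the purification pool added (-0.38), with the replicate block (-0.35, adjusted p 0.0586), with counts summed per session (-0.38), in cohort 1 alone (-0.27) and in cohort 2 alone (-0.55), and without a day it ran from -0.51 to -0.33. It was called by RLE scaling, DESeq2, the RNA integrity term and limma with the session as a block. The correlation estimated for that block over all genes was -0.0054, so the block changed the fit little. Slc2a4 gained a call in DESeq2 (-0.074) and ran from -0.089 to -0.056 without a day, Hk1 from 0.095 to 0.16 and Hk2 from 0.021 to 0.17; Slc2a1 was at -0.050 in cohort 2 alone. Of the uncalled supplement and hour effects, the sign turned, with a move of over 1 SE, in cohort 1 alone for Hk2 with NR (0.035), for Hk1 with PT (-0.070) and, at noon, for Slc2a4 (0.059), Slc2a1 (0.071), Hk2 (0.061), Tbc1d1 (-0.043) and Txnip (-0.015). It turned in cohort 2 alone for Tbc1d1 (-0.080) and Tbc1d4 (-0.035) with NR, for Tbc1d1 (0.041), Tbc1d4 (0.062) and Rrad (0.097) with PT and for Rrad at noon (0.081). With a cohort's counts summed per session, added after seeing the data, it turned at noon in cohort 1 for Slc2a4 (0.044), Slc2a1 (0.062), Hk2 (0.052) and Txnip (-0.019) and in cohort 2 for Hk1 (0.036) and Rrad (0.120), and Hk2 (-0.326) and Tbc1d1 (0.178) were called in cohort 2. Without a day, Tbc1d4 at noon ran from -0.070 to 0.045. Hk2 at noon was called in cohort 2 alone and without day 2 or day 3 (-0.21 each). The cohort difference of Hk2 at noon, added after seeing the data, was -0.38 in DESeq2. The cause of these moves was not tested.

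The number of genes called for running was 1333 without the filter, 1275 with counts summed per session, 623 in cohort 1 and 63 in cohort 2, and 1036 to 2358 without a day. For NR it was 1 in cohort 1 and 0 in cohort 2. DESeq2 called 6 genes for running by PT, and 470, 157 and 21 for running with both supplements, NR alone and PT alone. For running with both supplements the count was 86 without the filter, 163 with the pool, 52 in cohort 1, 0 in cohort 2, 389 without the ribosomal-RNA-rich library, and 30 to 448 without a day. For running with NR alone it was 29 without the filter, 39 with the pool, 0 in each cohort, 39 with the session as a block, 26 without that library, and 2 to 99 without a day; for PT alone it was 0 in each cohort and 0 to 11 without a day. At noon it was 1 in DESeq2, 1 with the replicate block, 254 in cohort 2, 297 there with counts summed per session, and 0 to 206 without a day. For the cohort difference at noon it was 74 in DESeq2 and 0 with counts summed per session. By CPM without length, Hk1 ranked 6, Slc2a1 7 and Rrad 8 of the 8 genes, against 8, 6 and 7 per length. The replicate numbers did not pair the mice: deviations of same-numbered libraries had a median r of 0.01, and 32 of 211 pairs exceeded 0.1.

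Reads limit Rrad (8 to 104 per library) and Slc2a1 (18 to 231).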
